A study of Mus musculus with 25 samples.

Results

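The genes of insulin and insulin-like growth factor (IGF) receptor signalling examined here were *Insr*, *Insrr*, *Igf1r*, *Igf2r*, *Igf1*, *Irs1*, *Irs2*, *Irs4* and *Grb14*. They were taken by name from the RNA-seq tables, where all 9 were found among 24439 genes. The open chromatin peaks whose nearest annotated gene was a member were added, and these were 56 of the 65053 peaks. A peak was assigned by its distance to a start site alone, so the assignment does not tie it to the control of that gene.

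Insulin and IGF-1 bind receptor tyrosine kinases, which then phosphorylate insulin receptor substrate (IRS) proteins. The phosphorylated substrates recruit PI3-kinase and so start the AKT branch of the pathway, while adaptors such as GRB14 bind the active receptor and restrain it. In islets the pathway is known for its part in beta cell mass and in the response of both alpha and beta cells to insulin.

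The study profiled the mouse islet tumour lines alpha TC1 clone 6 (αTC1), a single clone that makes glucagon, and beta-TC-6 (βTC6), which makes insulin. RNA-seq was run on 3 libraries of each line, and ATAC-seq, in which a transposase inserts adapters into accessible DNA, on 5 libraries of each line and on 9 mixtures of the lines, each of 100000 cells. The αTC1 cells grew in medium with 10% serum and added glucose, HEPES, amino acids and albumin. The βTC6 cells grew in another base medium with 15% serum and pyruvate, so that line and medium cannot be told apart. Neither the labels nor the methods say whether replicates were separate cultures, and p-values then measure only the spread between these libraries, which may be technical.

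RNA-seq libraries held 21954031 to 25004959 expected counts in αTC1 and 24554808 to 26033482 in βTC6. ATAC-seq libraries held 6903416 to 8300868 reads in peaks in αTC1, 4397851 to 10374903 in βTC6 and 5277983 to 7294832 in the mixtures. The hormone genes matched the labels of each line. The beta cell markers summed to 14.5 to 15.6 FPKM (fragments per kilobase of transcript scaled to the mapped total, a level per length) in αTC1 and to 34101 to 51154 in βTC6, with *Ins1* and *Pdx1* at 0 in αTC1. The alpha cell markers summed to 13272 to 15355 FPKM in αTC1 and 738 to 1862 in βTC6. *Gcg*, the glucagon gene, was at 12113 to 14406 FPKM in αTC1 and at 172 to 267 in βTC6, whereas *Ttr*, which made up most of the alpha marker sum in βTC6, overlapped between the lines (657 to 929 FPKM in αTC1 and 544 to 1579.5 in βTC6). Of 9 markers of other pancreatic and islet cells, *Sst* (207 to 325 FPKM) and *Ppy* (3.70 to 50.8) were present in βTC6, and the other 7 stayed under 1 FPKM in every library. The part of transcripts of other cell types in the results below was not tested. Libraries of a group were compared by the chi-square of their counts per degree of freedom. In RNA-seq it was 2.097 between αTC1 libraries 1 and 2, 30.2 and 32.0 between each of these and αTC1 library 3, and 19.0 to 43.2 among the βTC6 libraries. In ATAC-seq it was 2.06 to 2.54 among libraries 1 to 3 of each line and 4.38 to 10.5 in every pair with library 4 or 5, so that libraries 4 and 5 stood apart in both lines.

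To determine which arms of the pathway differ between the lines, member genes were compared with edgeR's quasi-likelihood test on expected counts (the log2 ratio, or log2 fold change, has βTC6 in the numerator). The type 1 IGF receptor gene *Igf1r* and the adaptor gene *Grb14* were higher in βTC6, and the substrate gene *Irs2* was higher in αTC1. Of the 9 members, 7 passed the filter of 1 FPKM in all replicates of either line and were tested among 12195 genes, whereas *Igf1* and *Irs4* did not pass it. At a Benjamini-Hochberg false discovery rate (FDR) under 5% together with a log2 ratio beyond 2 in size, 2 members were called higher in βTC6, where 10.2% of all tested genes were, and 1 was called higher in αTC1, where 4.08% were. At that FDR alone, 4 members were higher in βTC6 (*Igf1r*, *Grb14*, *Insrr* and *Igf2r*) against 38.7% of all genes, and 2 were higher in αTC1 (*Irs1* and *Irs2*) against 36% of all genes. *Insr* passed neither. The median log2 ratio of the 7 tested members was 1.15, next to 0.0094 over all genes. In bulk libraries, fewer cells that express a gene and less RNA per cell cannot be told apart.

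**Figure D1:**
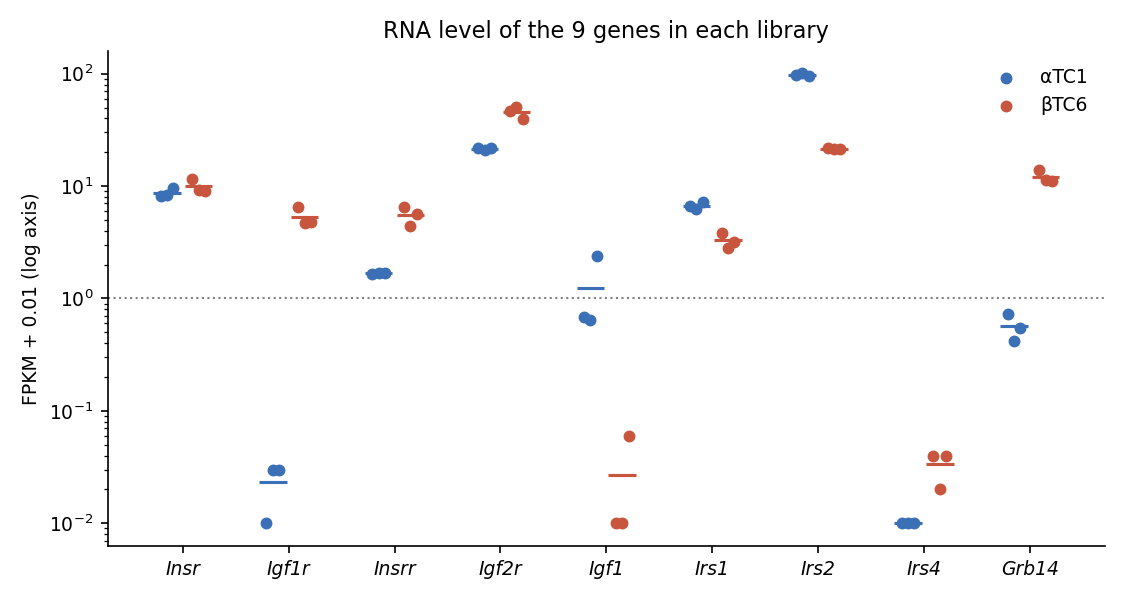
RNA level of each member gene in the 3 αTC1 (blue) and 3 βTC6 (red) libraries, as FPKM plus 0.01 on a log axis, with bars at the means and a dotted line at 1 FPKM. The *Igf1r* and *Grb14* points of βTC6 lie above all αTC1 points, those of *Irs2*, *Irs1* and *Igf1* lie below, and the *Insr* points overlap.

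Of the 56 peaks, 10 were called in βTC6 and 4 in αTC1, as the line in which they are more open, by limma at the same thresholds, next to 12.9% and 5.38% of all peaks. The called βTC6 peaks belonged to *Grb14* (4), *Igf1r* (3), *Insr* (2) and *Irs4* (1), and the called αTC1 peaks to *Irs1* (2), *Irs2* (1) and *Insrr* (1). At an FDR under 5% alone, 25 peaks had higher counts in βTC6 (39.9% of all peaks did) and 26 in αTC1 (38.1%), and 5 did not pass. No peak of *Igf2r* or *Igf1* was called. Log2 ratios of peaks are on the log2(normalized read count + 1) scale, which understates the change of low peaks. Of the 56 peaks, 9 lay within 2 kb of a start site and 47 were distal. Over all peaks, the main fit called 8409 in βTC6 and 3502 in αTC1. Replicates 1 to 3 alone gave 9 and 5 called member peaks (8157 and 3135 of all peaks). Replicates 4 and 5 alone gave 12 and 5 (9280 and 4367 of all peaks). This split was made because the library statistics of the study count mitochondrial reads over different totals in the 2 sets. The sets also stand apart as described above. A pseudocount of 5 gave 1 and 0 called member peaks (1668 and 819 of all peaks). The test of edgeR on reads recovered from the normalized counts gave 14 and 6 (13794 and 5739 of all peaks). Quantile normalization moved the share of βTC6 peaks among all calls from 70.6% to 52.5%, with a median shift of -0.30 in log2 ratio over all peaks. It gave 9 and 5 called member peaks (5655 and 5126 of all peaks).

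**Figure D2:**
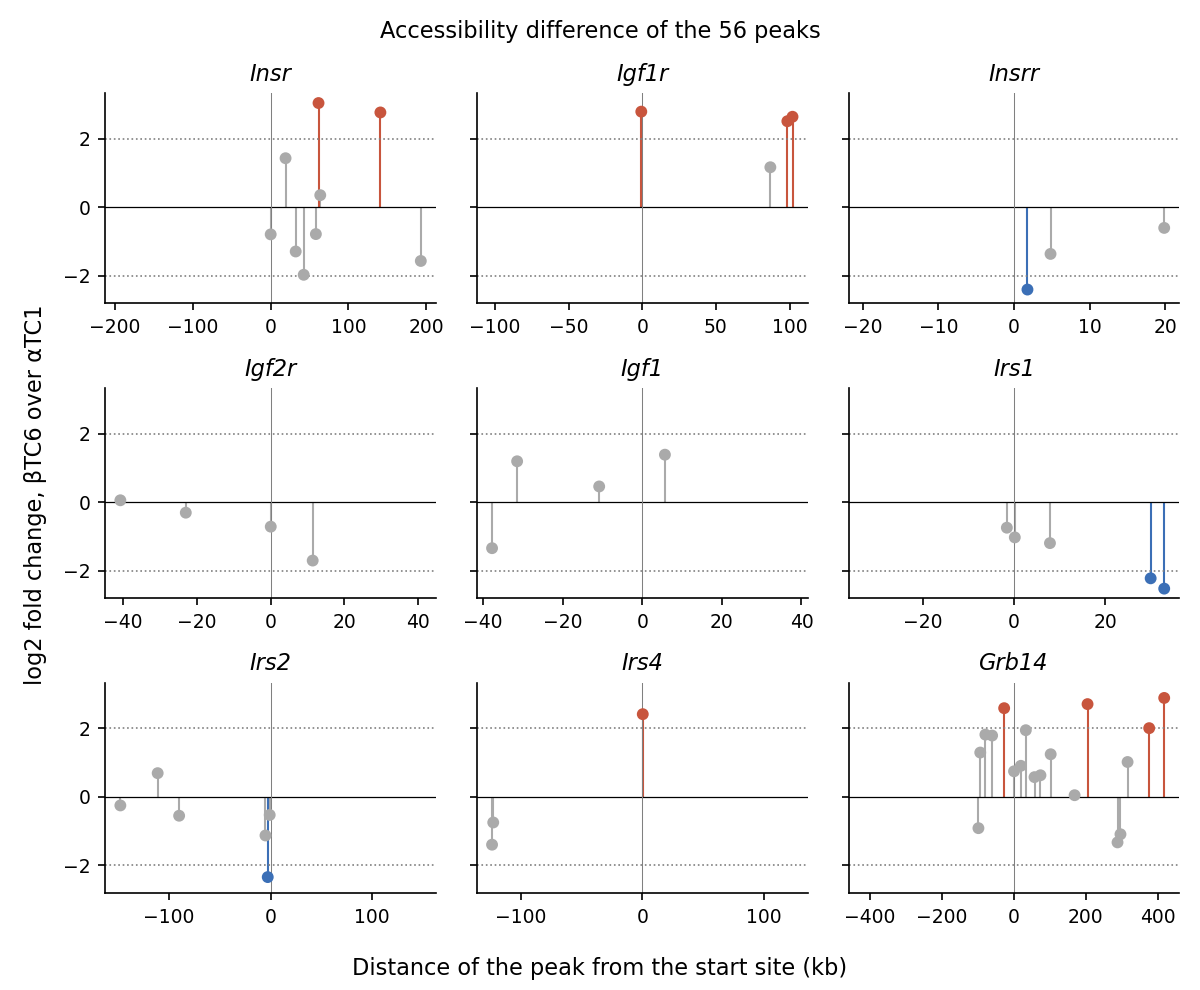
Log2 fold change (βTC6 over αTC1) of normalized read counts in each of the 56 peaks, by distance from the start site in kb, 1 panel per gene. Red marks peaks called in βTC6, blue those called in αTC1 and grey those not called, with dotted lines at -2 and 2. All 4 *Igf1r* peaks lie above 0 and all 5 *Irs1* peaks below it.

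*Igf1*, the ligand of the IGF-1 receptor, was detected in αTC1 and hardly at all in βTC6. Its expected counts were 30, 29 and 115 in αTC1 and 0, 0 and 1 in βTC6, or 0.67, 0.63 and 2.38 FPKM against 0, 0 and 0.05. The groups did not overlap, and αTC1 library 3 stood above the other 2 by more than 3 times. The ratio of summed counts was 186 (exact 95% counting interval 32.9 to 7378), and without αTC1 library 3 it was 97.0 (16.7 to 3895). Its 4 peaks, none within 2 kb of the start site, had log2 ratios between -1.35 and 1.38, of which 2 passed the FDR of 5% with higher counts in βTC6 and 1 with higher counts in αTC1.

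*Igf1r*, the receptor tyrosine kinase that binds IGF-1 and IGF-2, was the member with the largest difference among the 7 tested. Its counts were 0, 2 and 2 in the αTC1 libraries and 705, 520 and 499 in the βTC6 libraries, or 0, 0.02 and 0.02 FPKM against 6.50, 4.73 and 4.82. All βTC6 libraries were above all αTC1 libraries, and the αTC1 libraries stood at the limit of detection. The study lists *Igf1r* among genes that αTC1 lacked although primary alpha cells of human or mouse were enriched for them. The difference between the lines therefore need not hold between primary alpha and beta cells. The log2 ratio was 8.58 ± 0.36 SE (edgeR adjusted p = 8.29e-08), and the ratio of summed counts was 404 (exact 95% counting interval 157 to 1484).

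The chromatin at *Igf1r* differed in the same direction. The peak 0.667 kb upstream of its start site (mm9 chr7:75095584-75097367, upstream of the gene in GENCODE vM1) had normalized read counts of 4.76, 7.87, 4.66, 4.64 and 3.32 in αTC1 and 43.6, 37.9, 44.7, 36.2 and 37.4 in βTC6. The lowest βTC6 library was over 4 times the highest αTC1 library. The log2 ratio was 2.79 ± 0.16 SE (limma adjusted p = 6.37e-12), and it was the 1 member peak still called with a pseudocount of 5. The 2 intronic peaks 98.5 and 102 kb downstream of the start site were called as well, with means of 0.714 ± 0.322 and 1.48 ± 0.538 in αTC1 (SD, n = 5) and of 9.45 ± 4.76 and 14.5 ± 2.65 in βTC6 (log2 ratios 2.51 and 2.65). In the first of them the αTC1 libraries held only 1 to 6 reads. The third intronic peak, at 87.0 kb, had a log2 ratio of 1.17. Peaks of other genes within 1 Mb had a median log2 ratio of -0.58 (56 peaks), close to that of chromosome 7 as a whole (-0.57). The 200 bases at the centre of the promoter peak, chr7:75096376-75096575 on the plus strand, are shown because this is the member promoter with the largest change. They are 80.5% G and C and held none of the 5 motifs described below.
*Igf1r* promoter peak centre: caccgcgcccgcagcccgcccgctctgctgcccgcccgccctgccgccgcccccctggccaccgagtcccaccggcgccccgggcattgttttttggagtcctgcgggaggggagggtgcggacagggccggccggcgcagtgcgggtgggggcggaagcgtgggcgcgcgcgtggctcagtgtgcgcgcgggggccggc

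*Insr*, the insulin receptor gene, differed in RNA by less than the spread between libraries. The 3 αTC1 libraries held 8.22, 8.31 and 9.59 FPKM and the βTC6 libraries 11.5, 9.22 and 9.10. The groups overlapped, with a log2 ratio of 0.017 ± 0.087 SE (edgeR adjusted p = 0.87), whose sign changed under several of the alternatives. Its promoter peak, 0.139 kb downstream of the start site and over the first exon, was lower in βTC6, with normalized read counts of 55.8 ± 4.04 in αTC1 and 31.9 ± 2.93 in βTC6 (SD, n = 5, a log2 ratio of -0.79 ± 0.09 SE, limma adjusted p = 1.61e-07, or -0.42 under quantile normalization). Its distal peaks went both ways. In the main fit, the *Insr* intron held the member peak with the largest log2 ratio in size, 61.7 kb downstream of the start site. This peak had normalized read counts of 1.40, 0.84, 0.30, 0.96 and 0.43 in αTC1 and 11.5, 14.4, 12.2, 15.3 and 14.1 in βTC6. Here the αTC1 libraries held 2 to 10 reads each, and no library of one line reached the other line. The log2 ratio was 3.05 ± 0.22 SE (limma adjusted p = 1.61e-10). With a pseudocount of 5 it was 1.67, under the 2.17 of the *Igf1r* promoter peak. The peak at 141 kb, beyond the 3' end of the gene, was called too (0.764 ± 0.527 against 10.8 ± 2.24, log2 ratio 2.77), whereas the intronic peak at 42.6 kb reached -1.97, just short of the threshold. At the FDR alone, 3 of the 9 *Insr* peaks had higher counts in βTC6 and 5 did in αTC1. Peaks of other genes within 1 Mb had a median log2 ratio of -0.47 (41 peaks), and 19.5% of them had higher counts in βTC6. The lower promoter signal was thus not limited to *Insr*.

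*Insrr* encodes the insulin receptor-related receptor, a family member that does not bind insulin and responds to alkaline pH. Its FPKM values were 1.63, 1.69 and 1.69 in αTC1 and 6.54, 4.37 and 5.58 in βTC6. The groups did not overlap, and the log2 ratio of 1.91 ± 0.16 SE (edgeR adjusted p = 5.77e-06) lay just under the threshold of 2, which it passed without αTC1 library 3 (2.00) or without βTC6 library 2 (2.03). All 3 of its peaks went the other way. The peak 1.78 kb downstream of the start site, in an intron, had 14.8, 14.3, 13.8, 17.6 and 20.1 normalized reads in αTC1 and 2.41, 1.64, 2.97, 2.57 and 1.69 in βTC6. It was thus called more open in the line with the lower RNA level (a log2 ratio of -2.40 ± 0.19 SE, limma adjusted p = 8.44e-10), and the other peaks of *Insrr* had log2 ratios of -1.36 and -0.60. The gene overlaps *Pear1*, which is on the opposite strand and shares none of its exon bases in GENCODE vM1. Neighbouring peaks within 1 Mb had a median log2 ratio of -0.73 (85 peaks).

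*Igf2r*, whose product carries mannose 6-phosphate-tagged enzymes and removes IGF-2 without signalling as a kinase, was higher in βTC6. Its FPKM values were 21.73, 20.92 and 21.95 in αTC1 and 46.7, 50.4 and 39.7 in βTC6. The groups did not overlap (a log2 ratio of 1.15 ± 0.10 SE, edgeR adjusted p = 8.24e-06), and the difference was under the threshold for a call. The promoter peak had 19.0, 15.9, 17.3, 12.1 and 11.4 normalized reads in αTC1 and 9.51, 7.59, 13.6, 8.85 and 5.45 in βTC6. These groups overlapped, although the difference passed the FDR (a log2 ratio of -0.72 ± 0.20 SE, limma adjusted p = 0.0024). With libraries 4 and 5 of each line alone it was -0.68 and did not pass the FDR (limma adjusted p = 0.0934), and with libraries 1 to 3 alone it was -0.74 and passed (limma adjusted p = 0.00163). The other 3 peaks ran from -1.71 to 0.053. *Igf2r* overlaps the antisense transcript *Airn* along the gene but not in exons of the annotation.

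The makeup of the receptor family therefore differed between the lines. Of the summed FPKM of *Insr*, *Igf1r* and *Insrr*, *Igf1r* made up 0%, 0.200% and 0.177% in the αTC1 libraries and 26.5%, 25.8% and 24.7% in the βTC6 libraries. *Insr* made up 83.5%, 82.9% and 84.9% in αTC1 and 46.9%, 50.3% and 46.7% in βTC6. These shares did not overlap between the lines and follow from the gene levels above.

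**Figure D3:**
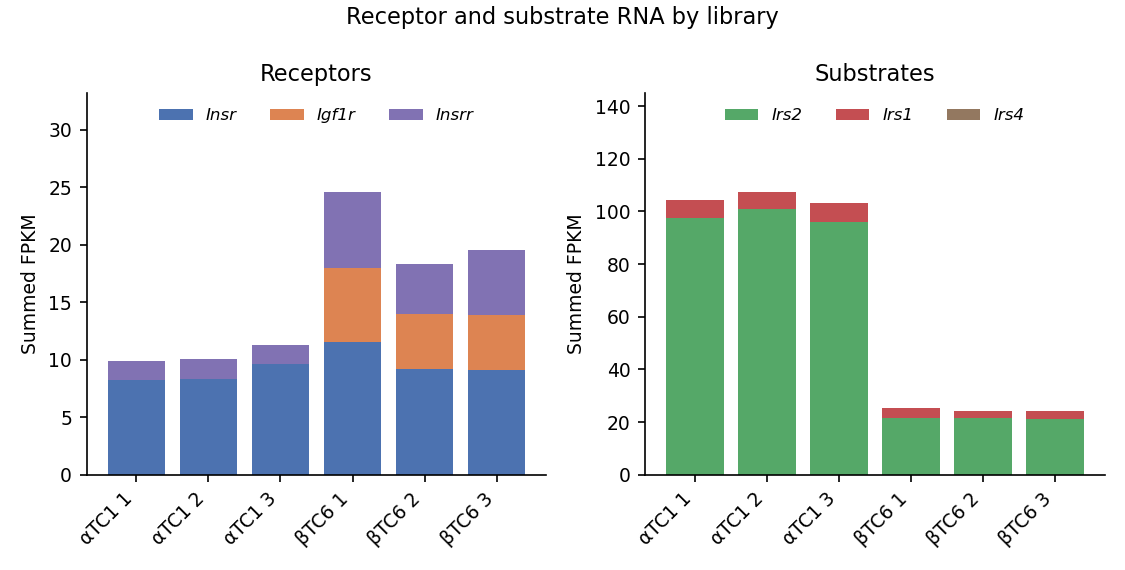
Summed FPKM of the receptor genes (left) and of the substrate genes (right) in each RNA-seq library, stacked by gene from 0. In βTC6 *Igf1r* makes up 24.7% to 26.5% of the receptor total, and the substrate total falls between 24.3 and 25.5 FPKM against 103 to 107 in αTC1.

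Among the substrates, *Irs2* was the most abundant in both lines and was higher in αTC1. Its FPKM values were 97.6, 101 and 96.0 in αTC1 and 21.7, 21.5 and 21.2 in βTC6. The log2 ratio was -2.14 ± 0.07 SE (edgeR adjusted p = 2.62e-08), close to the threshold of -2, and it stayed past it in every alternative, between -2.19 and -2.12. The peak 2.80 kb upstream of the *Irs2* start site (chr8:11011004-11011450), in an intron of the divergent gene *9530052E02Rik*, had 33.8, 36.8, 37.6, 33.6 and 26.4 normalized reads in αTC1 and 7.24, 3.69, 6.76, 6.28 and 5.54 in βTC6. The lowest αTC1 library was over 3 times the highest βTC6 library (a log2 ratio of -2.34 ± 0.16 SE, limma adjusted p = 5.56e-11). The peak nearest to the start site, 0.868 kb upstream, was open in both lines, with normalized read counts of 93.1 ± 7.56 in αTC1 and 64.2 ± 5.77 in βTC6 (a log2 ratio of -0.53). Under quantile normalization this difference was -0.048 and no longer passed the FDR (limma adjusted p = 0.645). Of the 4024 exon bases of *Irs2*, 162 are shared with *9530052E02Rik* on the opposite strand, which did not exceed 0.42 FPKM. Around the gene, 91 peaks of other genes within 1 Mb had a median log2 ratio of -0.63. The centre of the called peak, chr8:11011128-11011327 on the plus strand, is shown because it changed while the promoter stayed open, and it held none of the motifs searched.
*Irs2* upstream peak centre: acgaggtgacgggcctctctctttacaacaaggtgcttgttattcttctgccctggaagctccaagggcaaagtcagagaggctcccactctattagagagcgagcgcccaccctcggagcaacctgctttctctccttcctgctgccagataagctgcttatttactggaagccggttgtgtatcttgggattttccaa

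*Irs1* was lower than *Irs2* in both lines and also higher in αTC1. Its FPKM values were 6.61, 6.28 and 7.19 in αTC1 and 3.83, 2.82 and 3.16 in βTC6, without overlap (a log2 ratio of -0.98 ± 0.11 SE, edgeR adjusted p = 5.0e-05). Scaled to the spike-ins, this difference no longer passed the FDR (-0.97, adjusted p = 0.066). All 5 of its peaks were more open in αTC1 at an FDR under 5%. The 2 intronic peaks 30.0 and 32.9 kb from the start site were called. The farther had 15.97, 16.2, 12.9, 16.8 and 14.3 normalized reads in αTC1 and 1.14, 1.85, 2.16, 1.85 and 2.16 in βTC6 (chr1:82254791-82255396, a log2 ratio of -2.53 ± 0.19 SE, limma adjusted p = 3.51e-10). The nearer had a mean of 14.6 ± 1.99 in αTC1 and 2.37 ± 0.693 in βTC6 (a log2 ratio of -2.23). The promoter peak held 121 ± 7.07 normalized reads in the αTC1 libraries and 58.6 ± 4.49 in the βTC6 libraries (a log2 ratio of -1.03 ± 0.08 SE, limma adjusted p = 7.65e-10), and the peak 1.56 kb upstream had a log2 ratio of -0.75. Quantile normalization lowered the size of both, to -0.55 and -0.32. The median over chromosome 1 was -0.61. In GENCODE vM1, 2822 of the 9144 exon bases of *Irs1* are shared with *Gm9747* on the opposite strand, which was at 0 in αTC1 and at 0.29 to 2.17 FPKM in βTC6, so reads within these bases cannot be told apart, since counting did not use strand.

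*Irs4*, a substrate found in few adult tissues, was close to absent. Its counts were 0 in all αTC1 libraries and 5, 2 and 4.31 in βTC6, which against a floor of 3 counts over the αTC1 group was at least 3.53-fold higher in βTC6. Its FPKM did not exceed 0.03. Of its 6294 exon bases, 383 are shared with *Gm15295* on the opposite strand, which was not in the expression table, so the origin of these few counts is uncertain. Its promoter peak was nevertheless called more open in βTC6, at 3.22, 2.81, 3.61, 1.77 and 1.01 normalized reads in αTC1 and 13.6, 18.7, 17.3, 15.7 and 19.2 in βTC6 (chrX:138158553-138160157, a log2 ratio of 2.41 ± 0.22 SE, limma adjusted p = 5.98e-09). The other 2 peaks of *Irs4*, intergenic and 122.6 and 123.6 kb upstream, went the other way at an FDR under 5%, with log2 ratios of -0.75 and -1.40 (limma adjusted p = 9.71e-04 and 2.37e-06). The accessible promoter thus stood beside an RNA level that was hardly detectable at this depth.

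The balance of substrates shifted with these levels. The *Irs2* to *Irs1* ratio of FPKM was 14.8, 16.1 and 13.3 in αTC1 and 5.66, 7.62 and 6.70 in βTC6. Summed over the 3 substrates, αTC1 libraries held 104, 107 and 103 FPKM and βTC6 libraries 25.5, 24.3 and 24.4.

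The promoters of the substrate genes are shown because they carry the same short run. The RefSeq promoter windows (250 bases before to 50 after the start, GRCm38.p6) were given for 7 of the 9 members, and each matched mm9 exactly once. The E-box CACGTG, which reads the same on both strands and was chosen after the sequences had been seen, was present in 4 of the 7 (*Irs1*, *Irs2*, *Irs4* and *Igf2r*) and in 7.15% of all 32851 windows. In *Irs1*, *Irs2* and *Irs4* it lay in the shared run gtCACGTGtt, which 25 of the 32851 windows held. *Irs2* and *Irs4* share the 17 bases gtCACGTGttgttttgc, found in no window but theirs. The sequences are given 5′ to 3′ on the minus strand, in mm9 coordinates, upstream of the RefSeq start, with the E-box in capitals. The *Irs1* stretch is chr1:82288015-82288264, that of *Irs2* is chr8:11008930-11009179, and that of *Irs4*, cut to its first 200 bases, is chrX:138159811-138160010.
*Irs1* promoter: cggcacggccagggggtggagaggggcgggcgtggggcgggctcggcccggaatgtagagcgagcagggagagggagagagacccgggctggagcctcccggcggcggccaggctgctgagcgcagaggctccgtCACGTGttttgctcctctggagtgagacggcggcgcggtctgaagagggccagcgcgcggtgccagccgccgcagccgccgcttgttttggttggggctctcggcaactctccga
*Irs2* promoter: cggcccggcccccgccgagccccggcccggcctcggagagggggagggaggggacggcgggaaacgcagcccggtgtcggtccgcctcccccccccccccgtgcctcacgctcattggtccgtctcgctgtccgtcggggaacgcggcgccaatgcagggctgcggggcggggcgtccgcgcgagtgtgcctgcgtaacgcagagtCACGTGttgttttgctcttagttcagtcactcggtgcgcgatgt
*Irs4* promoter: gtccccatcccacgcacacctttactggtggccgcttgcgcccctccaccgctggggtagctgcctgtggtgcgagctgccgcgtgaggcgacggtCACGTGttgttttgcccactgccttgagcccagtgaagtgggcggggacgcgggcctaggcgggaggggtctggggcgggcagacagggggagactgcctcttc

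Each of these stretches lay wholly within the promoter peak of its gene. The log2 ratios of these peaks were -1.03 (*Irs1*), -0.53 (*Irs2*) and 2.41 (*Irs4*), and -0.55, -0.048 and 2.14 under quantile normalization, where *Irs2* did not pass the FDR. The run was thus shared by the promoter peaks of *Irs1* and *Irs4*, which differed in opposite directions. A match is a match of letters only.

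*Grb14*, the adaptor that binds the activated insulin receptor and inhibits its kinase, was higher in βTC6. Its FPKM values were 0.71, 0.41 and 0.54 in αTC1 and 13.85, 11.35 and 11.03 in βTC6. The groups did not overlap, and the log2 ratio was 4.49 ± 0.20 SE (edgeR adjusted p = 1.25e-07), or 22.4-fold. The *Insr* to *Grb14* ratio of FPKM was 11.6, 20.3 and 17.8 in αTC1 and 0.830, 0.812 and 0.825 in βTC6. *Grb14* had more peaks than any other member (18), of which 14 had higher counts in βTC6 and 3 in αTC1 at the FDR alone. Its promoter peak differed modestly, with normalized read counts of 25.7 ± 4.26 in αTC1 and 43.7 ± 6.19 in βTC6 (a log2 ratio of 0.75 ± 0.13 SE, limma adjusted p = 1.85e-05). The 4 called peaks of *Grb14* were all intergenic. The peak 418 kb downstream of the start site (chr2:64442537-64443355) had 0.56, 1.40, 1.65, 1.09 and 1.16 normalized reads in αTC1 and 17.5, 21.5, 11.4, 12.8 and 13.1 in βTC6 (a log2 ratio of 2.89 ± 0.22 SE, limma adjusted p = 5.36e-10). The peak 27.3 kb upstream had 1.67 ± 1.01 against 14.5 ± 2.87 (a log2 ratio of 2.59). Unlike the surroundings of *Igf1r*, 49 peaks of other genes within 1 Mb had a median log2 ratio of 0.84, so that higher accessibility in βTC6 was not limited to peaks assigned to *Grb14*.

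Ordered by mean FPKM, the αTC1 levels were *Irs2* (98.2), *Igf2r* (21.5), *Insr* (8.71), *Irs1* (6.69), *Insrr* (1.67), *Igf1* (1.23), *Grb14* (0.55), *Igf1r* (0.013) and *Irs4* (0). In βTC6 they were *Igf2r* (45.6), *Irs2* (21.4), *Grb14* (12.1), *Insr* (9.94), *Insrr* (5.50), *Igf1r* (5.35), *Irs1* (3.27), *Irs4* (0.023) and *Igf1* (0.017). Libraries of neighbours in this order overlapped for *Insrr* and *Igf1*, *Igf1* and *Grb14*, and *Igf1r* and *Irs4* in αTC1, and for *Grb14* and *Insr*, *Insrr* and *Igf1r*, and *Irs4* and *Igf1* in βTC6. *Insr* thus ranked next to *Grb14* in βTC6 and well above it in αTC1.

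To describe how closely the called peaks track the share of each line, they were followed through the 9 mixtures, which had no part in the calls. The authors had merged peaks of all libraries, mixtures included, into the peak set. The mixtures combined cells of these same lines, so a trend in the direction of the pure lines follows from the mixing. The tests below are therefore no separate support for the calls. For each of the 7 members with a called peak, the peak with the largest moderated t was correlated with the percentage of βTC6 cells (2-sided exact permutation tests, adjusted over the 7 peaks). The *Igf1r* promoter peak held 4.27, 11.3, 14.3, 12.8, 21.5, 29.1, 28.6, 33.6 and 36.3 normalized reads as βTC6 cells went from 10% to 90% in steps of 10%. It gave r = 0.98 (exact permutation p = 2.76e-05, adjusted 1.54e-04) and rho = 0.97 (exact permutation p = 1.65e-04, adjusted 5.79e-04). The *Irs2* upstream peak fell from 21.9 normalized reads at 10% to 7.13 at 90% βTC6 cells (r = -0.96, exact permutation p = 4.41e-05, adjusted 1.54e-04, rho = -0.97, exact permutation p = 1.65e-04, adjusted 5.79e-04). The mixtures thus ordered these peaks in the direction of the pure lines.

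The *Insrr* peak (r = -0.96, rho = -0.95) and the *Irs1* peak (r = -0.95, rho = -0.95) fell with the share of βTC6 cells, with adjusted exact permutation p of 1.93e-04 and 3.57e-04 for r and 6.17e-04 for both rho. The *Irs4* promoter peak gave r = 0.90 and rho = 0.90, with adjusted exact permutation p of 0.00165 and 0.00284. The intronic *Insr* peak gave r = 0.87 and rho = 0.87, with adjusted exact permutation p of 0.00343 and 0.00526. The distal *Grb14* peak was the loosest (r = 0.78, rho = 0.75, adjusted exact permutation p of 0.00834 and 0.0255). Without the mixtures of 10% and 90% βTC6 cells r kept its sign in all 7 peaks and was lowest in size for *Grb14*, at 0.60. At the *Grb14* peak all 9 mixtures lay under the straight line between the means of the pure lines, and 14 of the 63 mixture values of the 7 peaks lay above it. Each mixture was 1 library, so no spread between replicates stands behind these values.

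**Figure D4:**
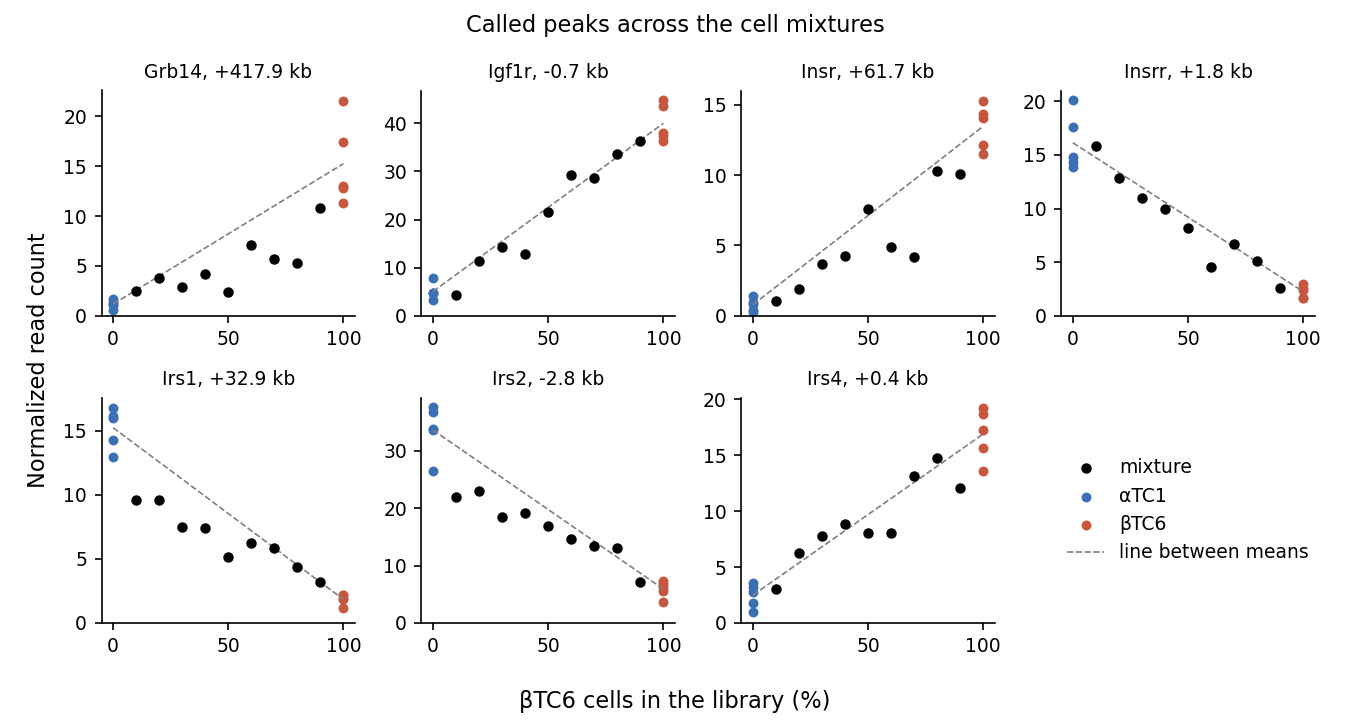
Normalized read counts of the 7 followed peaks against the percentage of βTC6 cells, with mixtures in black, αTC1 libraries in blue at 0%, βTC6 libraries in red at 100% and a dashed line between the means of the pure lines. The *Igf1r* values go from 4.27 to 36.3, with 7 of the 9 mixtures under the line, and all 9 *Grb14* mixtures lie under it.

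The wider pathway was described with 77 other ligands, binding proteins, adaptors, kinases and targets, of which 76 were in the table and 69 passed the filter. Of these, 11 were called higher in βTC6, where 10.2% of all tested genes were, and 3 in αTC1, where 4.08% were. At the FDR alone 24 were higher in βTC6 (38.7% of all genes), 24 in αTC1 (36%), and 21 did not pass. In the main fit, the αTC1 calls and both counts at the FDR alone thus lay near the shares of all genes. Scaled to the spike-ins, 11 and 7 passed the FDR. With limma on log2(FPKM + 1), 7 and 1 were called (702 and 277 of all tested genes). The median log2 ratio of the list was 0.037, near that of all genes.

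The ligands were the extreme of the list. *Ins1* stood at 0 FPKM in αTC1 and 2000 ± 395 in βTC6 (SD, n = 3), and *Ins2* at 0.34 ± 0.26 and 30081 ± 6150. *Igf2*, the growth factor bound by both IGF receptors, was at 0.067 ± 0.050 FPKM in αTC1 and 415 ± 39.2 in βTC6 (a log2 ratio of 13.5). The line with *Igf1r* RNA was therefore also the line with *Igf2* RNA, whereas *Igf1* RNA was found in the line where *Igf1r* RNA was at the limit of detection. Of the IGF-binding protein genes, *Igfbp7* (0 against 29.8 ± 6.62 FPKM) and *Igfbp4* (1.87 ± 0.30 against 46.6 ± 18.4) were called in βTC6.

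The adaptors of the GRB7 family split between the lines. *Grb10*, the closest relative of *Grb14* and likewise a receptor inhibitor, was at 196, 200 and 187 FPKM in αTC1 and at 0.18, 0.10 and 0.19 in βTC6 (a log2 ratio of -10.34 ± 0.17 SE, edgeR adjusted p = 1.11e-09). The third member, *Grb7*, was at 0.02 FPKM in each αTC1 library and at 12.2, 11.5 and 8.10 in βTC6. *Grb10* was thus high where *Grb14* and *Grb7* were low, and the reverse.

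The other genes called in βTC6 were the docking protein genes *Gab1* (a log2 ratio of 4.68), *Shc3* (2.87) and *Sh2b2* (2.82), and *Enpp1* (4.32) and *Ptprf* (3.82), whose products are known to dampen insulin receptor signalling. *Ptprf* went from 5.29 ± 1.53 to 73.5 ± 6.93 FPKM, whereas the others stayed under 3 FPKM in every library. *Dok1* (-2.65) and *Igfbp5* (-2.27), named after their values were seen, were the other genes called in αTC1.

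**Figure D5:**
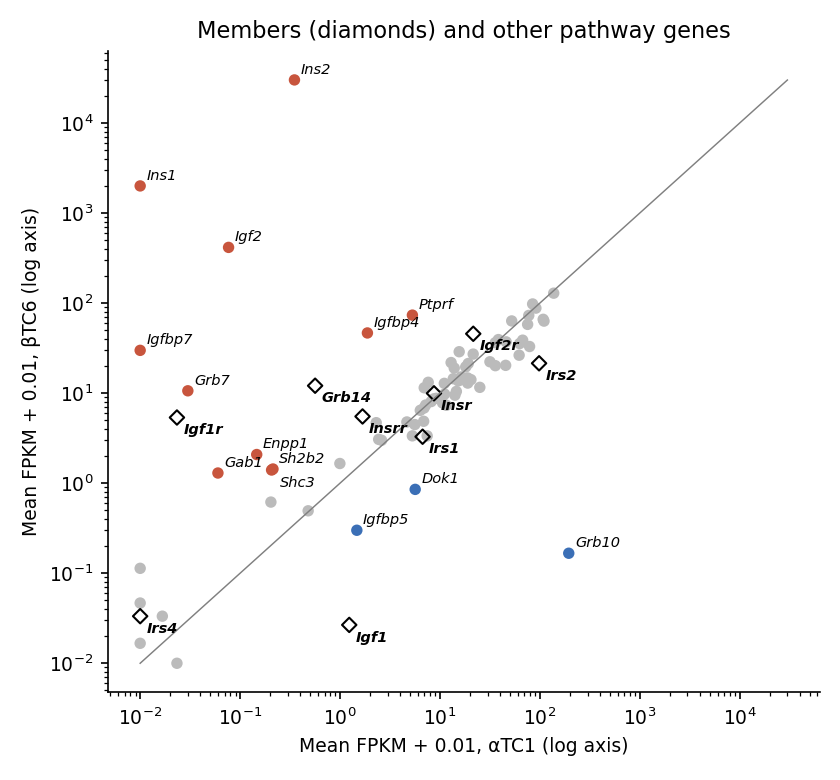
Mean FPKM plus 0.01 in βTC6 against αTC1 on log axes for the 9 members (diamonds) and the 76 other pathway genes (points), with genes called in βTC6 in red, in αTC1 in blue and the line of equal levels in grey. *Grb10* lies far below the line at 195 FPKM in αTC1, and *Grb14*, *Grb7*, *Igf2* and *Igf1r* lie above it.

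Genes with the pattern nearest to a called member, by Euclidean distance of log2(FPKM + 1) over the 6 libraries, were *Popdc3* (0.12) and *Chst8* (0.13) for *Igf1r*, *Lrrc10b* (0.27) and *Pex5l* (0.29) for *Irs2*, and *Limch1* (0.35) and *Pparg* (0.53) for *Grb14*. This measure depends on level as well as direction.

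The 4 short motifs besides CACGTG were searched on both strands in the 200 bases at each peak centre. The E-box CAGCTG was present in 15 of the 56 member peaks (26.8%) and in 17.2% of all 65053 peaks. The forkhead core GTAAACA was found in 6 (10.7% against 6.31% of all), the homeodomain core TAATTA in 6 (10.7% against 6.93%) and the cAMP response element TGACGTCA in 0 (0.761% of all). CACGTG was found in 3 (5.36% against 3.72%). Of the 14 called member peaks, CAGCTG was present in 3, among them both called *Irs1* peaks, and TAATTA in 1, the *Igf1r* peak at 98.5 kb. These are matches of letters over few peaks, and no comparison was tested.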

How the data were processed

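RNA-seq (6 libraries) and ATAC-seq (19 libraries) of αTC1 and βTC6 cells on mm9 were used. The deposited RNA-seq expected counts and FPKM values come from reads that the authors trimmed (Trim Galore 0.40), aligned (Bowtie 2) and counted on Ensembl transcripts (RSEM 1.2.12 at its default settings, which do not use strand). The deposited ATAC-seq signal is the TMM-normalized read count per consensus peak: the authors trimmed with Trimmomatic 0.32, aligned with BWA 0.7.9a, dropped duplicates (Picard 1.95), ran MACS 2.1.0 on each library, merged them with DiffBind 2.2.5 and annotated them with HOMER 4.6. All values (100%, tolerance 0.01) were whole multiples of the lowest value of their library, taken as 1 read. The table has no 0, so 1 read cannot be told from none. A column with the authors' differential class of each peak was not used.

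Genes were tested with edgeR 4.0.16 (glmQLFit, glmQLFTest, TMM) on rounded expected counts without spike-ins, and peaks with limma 3.58.1 (eBayes with trend) on log2(normalized read count + 1) in R 4.3.3, over all 12195 genes and all 65053 peaks. The standard error of a gene is its absolute log2 fold change over the square root of F. Both scripts were tested on simulated data, in which the changed peaks all had high read counts, so peaks as low as many called member peaks were not covered. DESeq2 1.42.0 was an alternative, with those on normalization, filters, pseudocount, unit, replicate block and left-out libraries. RUVSeq, which the study used, was replaced by 1 factor from the spike-ins. Sequences are from mm9 and from RefSeq promoters of GRCm38.p6, and gene models from GENCODE vM1. The sequences of some called peaks and the level of 1 marker gene are not reported here. Correlations were computed with Python 3.11.15 and numpy 2.4.6.

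Named peaks were those within 2 kb of the start site and the 2 called peaks with the largest absolute moderated t per member, and pathway genes were named in order of absolute log2 fold change up to 12. Other peaks given with values were chosen after their values were seen, and were neither recomputed singly under the alternatives nor put to the gap test. The members, lists and rules were chosen with earlier results of these data known. The *Igf1* ratio without αTC1 library 3 and the CACGTG search were added after seeing the data. The lowest chi-square per degree of freedom between 2 libraries of a group was 2.06. The value that sampling alone would give in these paired-end data was not tested. Replicate numbers were not treated as pairs in the main fits. The correlation of same-numbered deviations was at most 0.069, and whether libraries of the same number were processed together was not tested. Counting intervals and floors (3 counts) cover counting error only.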

Additional observations from a re-analysis of the deposited data

Results flagged for a closer look

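Among 17 named peaks, each examined in 2 groups of 5 libraries (34 groups), 1 library lay apart from its group by a gap test. At the *Irs1* intronic peak about 30 kb from the start site, αTC1 replicate 3 had 18.0 normalized reads, whereas the other 4 libraries of the line ranged from 13.2 to 14.3. The gap was 0.761 of the range, above the critical value of 0.71. About 1 in 20 groups is flagged by chance, and the call of the peak held without this library.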

How the results depend on the processing

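The calls of *Igf1r*, *Grb14* and *Irs2* held under all alternatives. Leaving out each library in turn gave 2 to 3 member genes called in βTC6 and 1 in αTC1, and 9 to 11 and 4 to 5 member peaks. Dropping the filter or using filterByExpr raised the member genes called in αTC1 from 1 to 2, since *Igf1* was then tested, and without a filter *Irs4* was called in βTC6. Spike-in scaling left 1 member higher in αTC1 at the FDR and 11 and 7 pathway genes in place of 24 and 24. With limma on log2(FPKM + 1), 7 and 1 pathway genes were called. Of all 12195 tested genes it called 702 and 277, against 1245 and 498 in the main fit. A pseudocount of 5 left 1 and 0 called member peaks, which follows from its pull on low counts. Of all peaks it called 1668 and 819, against 8409 and 3502 in the main fit. With edgeR on recovered reads, 14 and 6 member peaks were called, and 13794 and 5739 of all peaks. The sign of the *Insr* RNA difference reversed with 1 spike-in factor (-0.029), no filter (-0.037), filterByExpr (-0.00048) and on leaving out libraries (-0.043 to 0.088). The replicate block gave 2 and 1 member genes and 10 and 4 member peaks, as without it, and changed no other call of a named gene or peak. Deviations of samples with the same number correlated at 0.069 at most. The cause of these shifts was not tested beyond this. Depth limits *Igf1r* and *Irs4* in αTC1 and *Igf1* in βTC6, at 0 to 2 counts per library.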
